A study of Homo sapiens with 6 samples.

Results

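The splice sites described here are unannotated acceptors that lie a short way downstream of annotated ones. An acceptor, or 3′ splice site, is the end of an intron, and a donor, or 5′ splice site, is its start. A member is a pair of junctions that leave the same 5′ splice site and end at acceptors 10 to 100 nt apart, where the upstream junction is annotated and the downstream acceptor belongs to no annotated junction in any of the 6 libraries. Members were selected on their read counts: at least 20 uniquely mapped reads over the pair in each library and at least 10 on each site over the 6 libraries pooled. This gave 1162 pairs out of the 5684 pairs of competing acceptors 1 to 100 nt apart that met the same read minimums. The value followed is the downstream share, the percentage of a pair's reads that end at the downstream acceptor. The rule used reads of both genotypes together and not their difference.

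All libraries were poly(A)+ RNA of K562, an established human chronic myeloid leukaemia line with erythroid features. In 3 libraries, here WT, the cells carried a knock-in of wild-type U2AF1, and in the other 3 they carried U2AF1 S34F, which puts phenylalanine in place of serine. The labels do not say whether each genotype was 1 clone, how many alleles were edited, or whether the replicates came from separate cultures, so that p-values measure only the spread between these libraries, which may be technical. Junction counts do not show the substitution itself, and erythroid markers were not examined because junctions were not assigned to genes. The libraries held between 18074706 and 39279169 uniquely mapped spliced reads, with S34F replicate 3 the deepest and S34F replicate 2 the shallowest. Unannotated junctions of every kind took 1.14% ± 0.110 of these reads in WT and 1.31% ± 0.0717 in S34F (mean ± SD, n = 3 each), with overlapping groups.

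An acceptor is recognised through the branch point, the polypyrimidine tract and the AG that closes the intron. U2AF2, the large subunit of the U2 auxiliary factor, binds the tract, and U2AF1, the small subunit, contacts the AG and its neighbouring bases through zinc fingers, one of which holds the serine changed by S34F. Where several AGs follow a branch point, the one nearest to it is generally favoured, so that an AG further downstream competes with a site that normally comes first. U2AF1 mutations at this serine recur in myelodysplastic syndromes and acute myeloid leukaemia and are known to alter which acceptors and cassette exons are used.

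The members lay on 23 chromosomes, 560 of them on the plus and 602 on the minus strand. All 1162 joined GT-AG introns at both acceptors, as the motif code of the files gives them. The genome sequence of the build was not used here, so that the bases before each AG are not shown. The distance between the acceptors had a median of 43 nt and quartiles of 26 and 62 nt. It was a multiple of 3 in 430 members, 1 more than a multiple in 383 and 2 more in 349. The intron ending at the annotated acceptor had a median length of 901 nt.

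Most downstream acceptors lay inside the exon that the annotated acceptor opens. In 1085 members the next annotated 5′ splice site, taken as the end of that exon, followed the downstream acceptor and lay within 500 nt of the upstream one. Its median distance, over the 1091 members with such a site within 500 nt, was 141 nt. Use of the downstream acceptor would take a median of 30.6% off the exon in those 1085 members. In 6 members the downstream acceptor lay past the next annotated 5′ splice site, and in 71 there was none within 500 nt.

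Members were not all separate sites. The 1162 pairs used 1116 5′ splice sites, 1146 downstream acceptors and 1154 different pairs of acceptors. The downstream acceptor was joined to a single 5′ splice site in 711 members, and in 451 it was also reached from at least 1 further 5′ splice site, up to 7 in all. Reads spanning the downstream junction had a largest overhang with a median of 48 nt over the members, and it was under 20 nt in 12 of them. No multi-mapped read fell on the downstream junction in 965 members.

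In WT these were minor sites. The mean downstream share in WT had a median of 1.34% over the members, with quartiles of 0.468% and 3.09%, and 10% of members were above 6.29%. In S34F the median was 2.43%, the quartiles 0.835% and 5.61%, and 10% of members were above 10.6%. The downstream acceptor took over 10% of the reads in 57 members in WT and in 130 in S34F. It took over 50% in 3 members in WT and in 6 in S34F. By library, the median share over the members was 1.59%, 0.952% and 0.873% in WT replicates 1 to 3 and 1.95%, 1.97% and 2.46% in S34F replicates 1 to 3. Every S34F library thus lay above every WT library.

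The plot of reads summed over pairs gives the same contrast without weighting each pair alike. Over the members, the downstream acceptors took 0.452%, 0.385% and 0.373% of the pair reads in WT replicates 1 to 3, a mean of 0.403% ± 0.0427. They took 0.624%, 0.561% and 0.819% in S34F, a mean of 0.668% ± 0.134 (n = 3 each), 1.66 times the WT mean. The lowest S34F library, replicate 2, stood at 0.561% (95% Clopper-Pearson interval 0.545% to 0.577%) and the highest WT library, replicate 1, at 0.452% (0.440% to 0.465%). These intervals cover counting error only and leave out the spread between libraries. S34F replicate 3, the deepest, was the highest, and the part of depth in the difference between the genotypes was not tested.

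**Figure D1:**
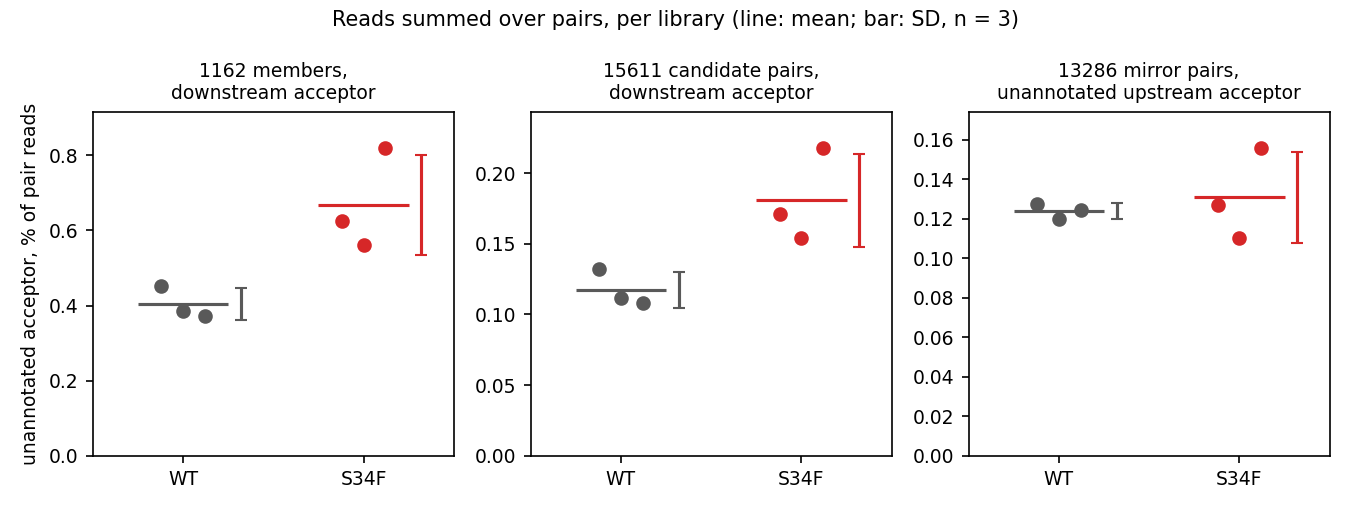
Unannotated acceptors as a percentage of the reads of their pairs (y axis, from 0) in each of 3 WT and 3 S34F libraries, summed over the 1162 members, over all 15611 candidate pairs of the same position and annotation whatever their reads, and over 13286 mirror pairs whose unannotated acceptor lies upstream; points are libraries, lines means and bars SD. The groups do not overlap in the first and second panels, and overlap in the third.

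A pooled minimum can let a pair in through the genotype in which its downstream site is high, so the sum was also taken with no read minimum. All 15611 pairs that met the distance, motif and annotation part of the rule were used, of which 9887 had 20 reads in each library and 1466 had 10 on each site. The downstream acceptors took 0.117% ± 0.0130 of their reads in WT and 0.181% ± 0.0330 in S34F, 1.54 times the WT mean, with no overlap between groups. The 14449 candidates that did not become members stood at 0.0714% ± 0.00843 and 0.104% ± 0.0191. As a mirror, 13286 pairs with an unannotated acceptor 10 to 100 nt upstream of an annotated junction were summed the same way. Their upstream acceptors took 0.124% ± 0.00397 in WT and 0.131% ± 0.0230 in S34F, 1.06 times the WT mean, with overlapping groups. The difference between the downstream and the mirror class was not tested.

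S34F was then compared with WT pair by pair. One edgeR quasi-likelihood fit held all 5684 pairs, the tested value was the change in log2 odds of the downstream acceptor, and Benjamini-Hochberg adjustment ran over all pairs. A pair was called at an adjusted p under 0.05 with group mean shares at least 10 percentage points apart. Among the members 29 of 1162 were called (2.50%), beside 2.85% of all pairs, so that by this measure the members were not called more often than pairs at large. Of the 29 calls, 28 moved towards the downstream acceptor and 1 towards the upstream one; over all pairs 2.48% were called towards the downstream and 0.369% towards the upstream acceptor. Only 8 members were called with DESeq2 (0.688%, beside 0.633% of all pairs) and 5 with limma (0.430%, beside 0.176%), in each case towards the downstream acceptor. Pairs with both junctions annotated, 10 to 100 nt apart, were called in 112 of 1714 cases (6.53%).

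The minimum of 10 percentage points weighs on sites with small shares. Without it, 132 members (11.4%) passed the edgeR adjusted p, beside 6.53% of all pairs. All pairs include 2041 that lie under 10 nt apart, of which 0.294% passed; of the pairs with both junctions annotated 11.2% passed (192 of 1714), close to the share of the members. The downstream share was higher in S34F in 130 of the 132 and lower in 2, beside 5.7% and 0.827% of all pairs. The 132 were 15 with DESeq2 and 20 with limma, beside 47 and 30 of all 5684 pairs (0.827% and 0.528%). Without WT replicate 1, 2 or 3 the members that passed were 161, 73 and 77, beside 417, 250 and 232 over all pairs. Without S34F replicate 1, 2 or 3 they were 106, 103 and 73, beside 283, 280 and 205 over all pairs. At an unadjusted p under 0.05 there were 357 members (30.7%), beside 17.3% of all pairs, and 336 of them moved downstream. All S34F libraries lay above all WT libraries in 319 members (27.5%) and below them in 31 (2.67%), where the figures over all pairs were 15.4% and 5.67%. The median change in log2 odds was 0.74 over the members and 0.15 over all pairs tested, and it was 0.73 when the 32 members with no WT read on the downstream site were set to the bound that 3 reads give. Of the pairs with both junctions annotated, 24.4% had an unadjusted p under 0.05, 20.9% lay above and 7.18% below, with a median of 0.27. Of the 661 with an unannotated upstream acceptor these were 14.7%, 10.1% and 8.47%, with a median of -0.03. Of the 106 remaining pairs 10 to 100 nt apart they were 25.5%, 23.6% and 4.72%, with a median of 0.51. Differences between these classes were not tested.

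**Figure D2:**
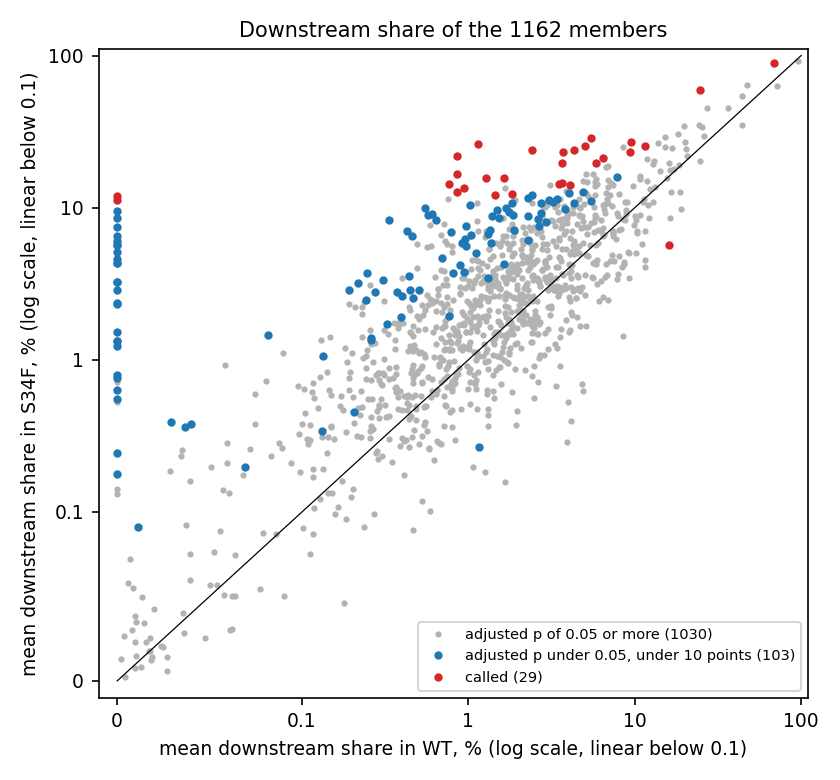
Mean downstream share of each of the 1162 members in WT (x axis) and S34F (y axis), in percent on log scales that turn linear below 0.1; the line marks equal shares. The 29 called members are red, the 103 that passed the adjusted p with a smaller difference are blue, and most coloured points lie above the line.

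The median was smaller among members with reads on the downstream site in both genotypes. The downstream site had 10 or more WT reads in 383 members, and 10 or more S34F reads in 769. Among the 330 with 10 or more in each genotype, the median change was 0.37, 12 were called, 11 of them downstream, and 41 passed the adjusted p, 40 of them downstream. A refit with 10 reads on each site in each genotype, chosen after seeing the data, called 3.95% of 329 members, beside 4.50% of all pairs. Of the 29 called members, 17 had under 10 WT reads on the downstream site and met the pooled minimum through S34F, as did 90 of the 132 that passed the adjusted p. The 32 members with no WT read could enter only through S34F, where their median share was 2.63%, and 28 of them are among the 132; their passing is no support for a rise.

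The largest called difference was on chromosome 9 (plus strand), where the 5′ splice site at 140100365 was joined to the annotated acceptor at 140100683 and to an unannotated one 49 nt further at 140100732 (positions in hg19, first and last bases of the intron). The downstream share was 28.3%, 22.0% and 23.7% in WT replicates 1 to 3 and 64.1%, 56.8% and 56.1% in S34F replicates 1 to 3. The unannotated site was thus the minor one in every WT library and the major one in every S34F library. The means were 24.7% ± 3.23 and 59.0% ± 4.44 (n = 3 each; log2 odds 2.09 with an SE of 0.43, edgeR adjusted p = 0.000527), on 37 to 123 reads per library. The next annotated 5′ splice site lay 78 nt past the upstream acceptor. It was not called with DESeq2 or limma (adjusted p up to 0.0636).

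On chromosome 3 (minus strand) the acceptor at 52729571 lay 33 nt downstream of the annotated one at 52729604. Its reads were 2, 1 and 0 in WT and 22, 14 and 41 in S34F, on 63 to 131 reads per library for the pair. The shares were 2.15%, 1.27% and 0% in WT and 24.7%, 22.2% and 31.3% in S34F, so that a site near 0 in WT took over 20% of the reads in each S34F library. It moved by 4.78 in log2 odds with an SE of 0.62 (edgeR adjusted p = 1.12e-07), the smallest adjusted p among the members. This call was kept in all 17 alternative fits that held the pair, with adjusted p up to 0.0343. The downstream site had 3 WT reads in all, so the pair met the pooled minimum only through S34F. The refit with a read minimum on each site in each genotype did not hold the pair. The 17 fits thus do not test the pair apart from this selection.

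On chromosome 5, plus strand, the acceptor at 147817968 lay 74 nt downstream of 147817894. It took 9.38%, 1.37% and 5.56% in WT and 16.7%, 39.3% and 29.6% in S34F (log2 odds 2.82 with an SE of 0.61, edgeR adjusted p = 0.00105). The S34F libraries differed widely among themselves but did not overlap with WT. On chromosome 7, plus strand, the acceptor at 32582783, 31 nt downstream of 32582752, took 3.95%, 0% and 3.33% in WT and 35.5%, 17.9% and 18.3% in S34F (log2 odds 3.26 with an SE of 0.73, edgeR adjusted p = 0.00159). Here S34F replicate 1 was the highest, on 28 to 76 reads per library. Neither pair was called with DESeq2 or limma. Their downstream sites had 9 and 4 WT reads in all, so both pairs met the pooled minimum of 10 only through S34F.

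On chromosome 18, plus strand, the acceptor at 23845186 lay 53 nt downstream of 23845133, at the end of an intron that starts at 23807241. Its reads were 0, 0 and 1 in WT and 5, 6 and 7 in S34F. The pair had only 21 to 50 reads per library, and the shares were 0.855% ± 1.48 in WT and 21.8% ± 7.33 in S34F (n = 3 each; log2 odds 4.23 with an SE of 0.99, edgeR adjusted p = 0.00279). On the X chromosome, plus strand, the acceptor at 77254058, 84 nt downstream of 77253974, took 10.5%, 4.62% and 0% in WT and 14.3%, 34.9% and 27.5% in S34F (log2 odds 2.61 with an SE of 0.65, edgeR adjusted p = 0.00497). S34F replicate 1 stood close to WT replicate 1 there. The X chromosome pair was not called with DESeq2 or limma (adjusted p of 0.147 and 0.178), without WT replicate 3 or without S34F replicate 2, and the chromosome 18 pair was not called with DESeq2 (adjusted p = 0.0811). With 1 WT read on the chromosome 18 site and 7 on the X chromosome site, both pairs met the pooled minimum only through S34F.

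At the chromosome 14 pair, plus strand, the unannotated acceptor took at least 50% of the pair's reads in every library. The acceptor at 104145744 lay 99 nt downstream of 104145645 and took 68.6%, 50% and 87.0% in WT and 82.8%, 95.5% and 89.7% in S34F. This was the one called member whose groups overlapped, since WT replicate 3 lay above S34F replicate 1. Its log2 odds rose by 2.05 with an SE of 0.59 (edgeR adjusted p = 0.0214) on 22 to 87 reads per library. It was not called without WT replicate 2, S34F replicate 2 or S34F replicate 3, with DESeq2 or limma, with the replicate block, or against all other acceptors of its 5′ splice site. The difference of 20.8 percentage points was 11.5 without WT replicate 2 and 3.37 against all other acceptors.

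The one call in the other direction was on chromosome 15 (minus strand), where the acceptor at 75651708 lay 59 nt downstream of 75651767. It took 21.3%, 15.3% and 11.4% in WT and 5.48%, 8.11% and 3.50% in S34F, with no overlap (log2 odds -1.95 with an SE of 0.58, edgeR adjusted p = 0.0270). The reads on the downstream site were 13, 9 and 4 in WT and 4, 3 and 5 in S34F. It was not called in 8 of the 17 alternative fits that held it: without WT replicate 1, WT replicate 2, S34F replicate 1 or S34F replicate 3, with DESeq2, limma or the replicate block, and against all other acceptors.

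**Figure D3:**
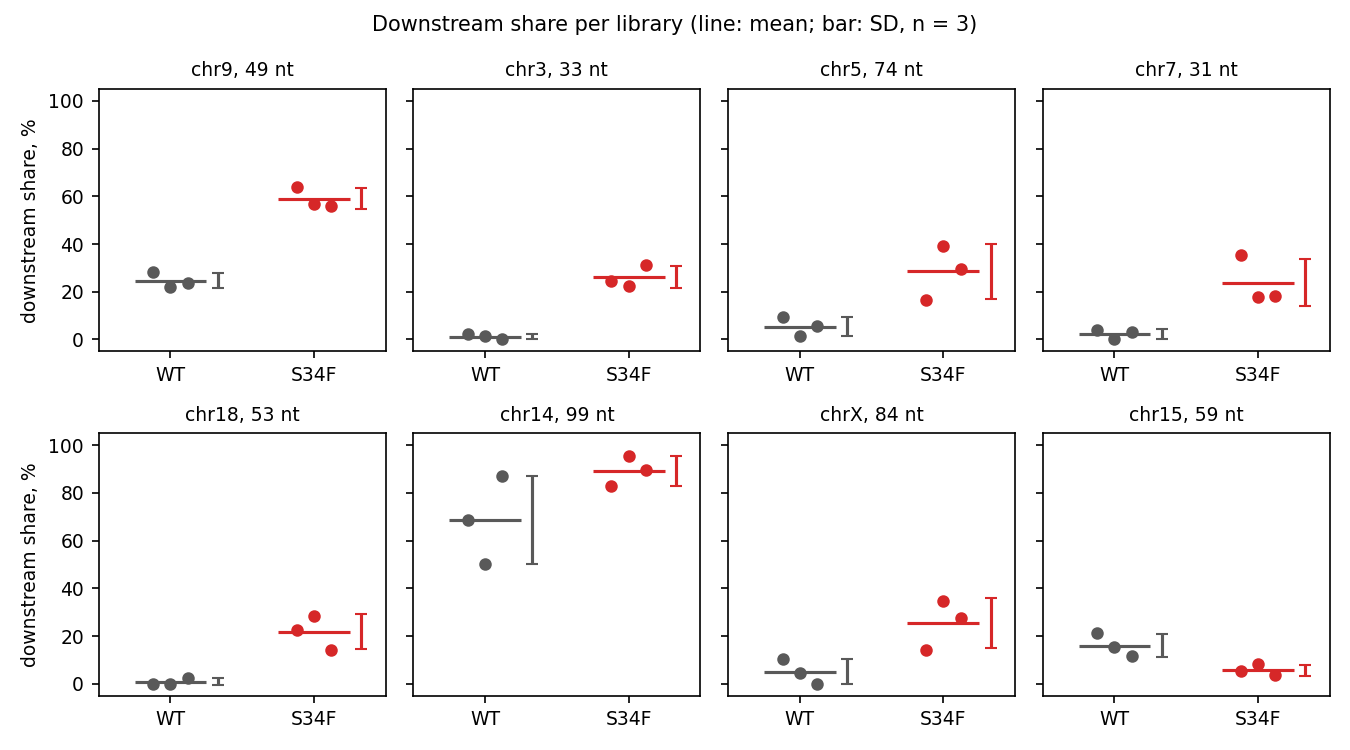
Downstream share in percent (y axis) in each WT and S34F library for the 7 largest called rises and the 1 called fall, each panel titled by chromosome and distance between the acceptors; points are libraries in replicate order, lines means and bars SD (n = 3). Among these 8 pairs, the ranges of WT and S34F overlap only in the chromosome 14 panel.

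The other 21 called members moved downstream as well. Over all 28 downstream calls, of which 24 were among the members below the median of pair reads, the difference of the mean shares ran from 10.01 to 34.3 percentage points with a median of 14.1, and the log2 odds changed by 1.39 to 5.94. In 19 of the 28 the WT mean was under 5% and in 25 it was under 10%. The groups did not overlap in 27 of them, which is no further support, since the calls were chosen by p and difference in the same libraries. The 29 called members used 29 different 5′ splice sites on 17 chromosomes, with 7 on chromosome 1, and 13 of their downstream acceptors were joined to a further 5′ splice site.

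In 2 of the called members no WT read used the downstream site; they are named for that, after their values were seen, and given as a description, since they entered through S34F alone. On chromosome 20, plus strand, the acceptor at 37144889, 55 nt downstream of 37144834, had 0 of 150 WT reads, which allows a share of up to 2%, and 19 of 153 S34F reads. On chromosome 1, plus strand, the acceptor at 180056733, 21 nt downstream of 180056712, had 0 of 171 WT reads, which allows up to 1.75%, and 20 of 189 S34F reads. The S34F means were 11.9% ± 6.15 and 11.3% ± 2.79 (n = 3 each). A further pair is named because, with the chromosome 3 pair, it alone was called in every alternative fit that held it, at the minimum of 10 percentage points. On chromosome 1, plus strand, the acceptor at 25783185, 42 nt downstream of 25783143, went from 0.764% ± 0.664 in WT to 14.3% ± 3.91 in S34F (n = 3 each; log2 odds 4.08 with an SE of 0.75, edgeR adjusted p = 9.3e-05). Its downstream site had 2 WT reads in all, so this pair too met the pooled minimum only through S34F.

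The abundance of the called pairs was also set side by side between the genotypes. Reads of the whole pair, scaled to the unique reads of each library, differed between S34F and WT by a median of -0.07 in log2 over the 29 called members, from -0.79 to 0.42, with 18 lower and 11 higher in S34F. The median over all members was -0.01. These ratios were not tested.

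The 103 members that passed the adjusted p with less than 10 percentage points had a median WT share of 0.460% and a median S34F share of 5.02%. Of these, 102 were higher in S34F and 1 was lower. The 1030 members that did not pass had summed shares of 0.385% ± 0.0352 in WT and 0.537% ± 0.109 in S34F, and these groups did not overlap. Over all members the downstream site had under 10 WT reads in 779 and under 10 S34F reads in 393. The pooled minimum thus let in more members through S34F, and these sums are no further support for a rise. By library the sums over the 1030 stood at 0.426%, 0.370% and 0.360% in WT and at 0.504%, 0.447% and 0.658% in S34F, so that WT replicate 1 came close to S34F replicate 2.

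By the distance between the acceptors, the members 10 to 20 nt apart had the smallest median change, with no steady order beyond 20 nt. The median change in log2 odds was 0.25 over the 187 members 10 to 20 nt apart, 0.84 over the 173 at 21 to 30 nt, 0.76 over the 352 at 31 to 50 nt and 0.91 over the 450 at 51 to 100 nt. The share of members past the adjusted p was 4.81%, 11.0%, 14.2% and 12% in the same order. Of the pairs with both junctions annotated, 6.89%, 8.03%, 13.9% and 12.8% passed in these bins. Of those with an unannotated upstream acceptor, 0%, 4.97%, 2.68% and 10.6% passed. At an unadjusted p under 0.05 the shares of the members were 17.1%, 28.9%, 31.5% and 36.4%. In pairs with both junctions annotated, the median change was 0.01, 0.08, 0.29 and 0.42 over the same bins. In pairs with an unannotated upstream acceptor it was 0.03, -0.16, -0.02 and -0.06. Differences between these classes and bins were not tested. The pooled minimum acts on the unannotated site in the members and in the mirror pairs. Through which genotype the mirror pairs met it was not counted, so its part in these differences is not known.

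**Figure D4:**
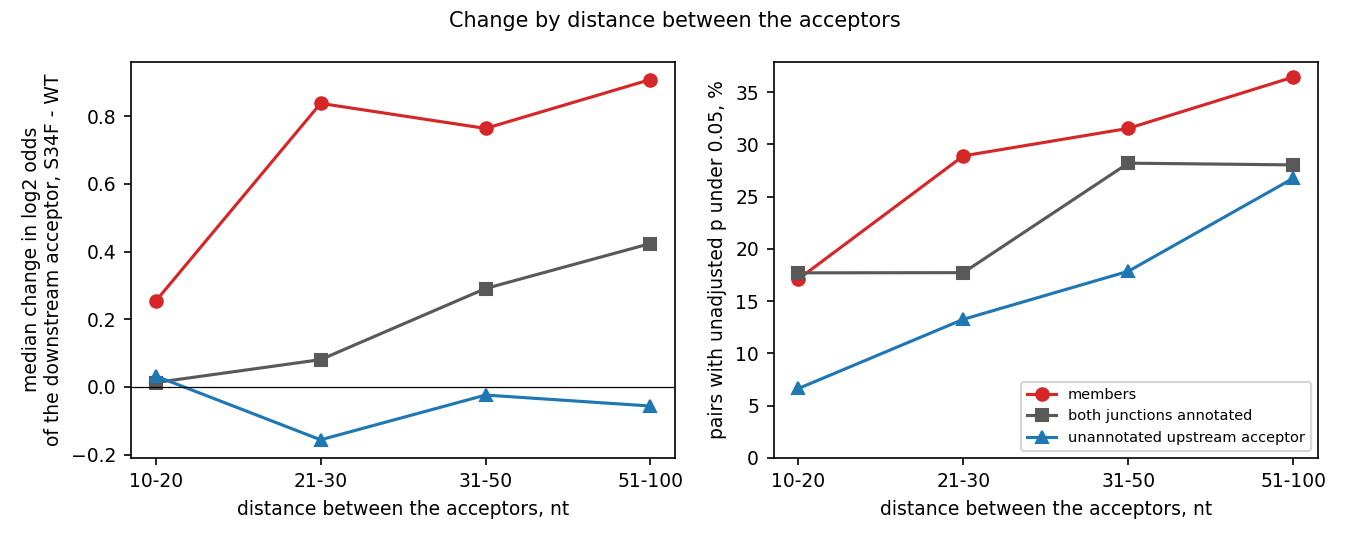
Median change in log2 odds of the downstream acceptor, S34F minus WT (left), and percentage of pairs with an unadjusted edgeR p under 0.05 (right), by the distance between the acceptors in nt, for the 1162 members, 1714 pairs with both junctions annotated and 661 with an unannotated upstream acceptor. The members' median is lowest at 10 to 20 nt, and the members lie above the other classes in the 3 bins beyond it in both panels.

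The members were also split by other features that the rule did not use, again without a test between the splits. Where the distance was a multiple of 3, 13 of 430 members were called and 59 passed the adjusted p, with a median change of 0.65. Where it was 1 or 2 more than a multiple, 7 of 383 and 9 of 349 were called, 33 and 40 passed, and the medians were 0.78 and 0.73. Of the pairs with both junctions annotated, 60 of 747, 32 of 471 and 20 of 496 were called in the same order. By the distance from the upstream acceptor to the next annotated 5′ splice site, the median change was 0.57 up to 100 nt, 0.74 at 101 to 150 nt, 0.93 at 151 to 200 nt, 0.68 at 201 to 500 nt and 0.52 where none lay within 500 nt. The share past the adjusted p was 6.86%, 12.04%, 15.5%, 8.66% and 4.23% in the same order. None of the 71 members in that last group was called with edgeR, and 23 had an unadjusted p under 0.05; DESeq2 and limma were not counted by group. Of the calls, 21 were among the 560 members on the plus strand and 8 among the 602 on the minus strand (3.75% and 1.33%), while the medians were 0.79 and 0.69. Over all pairs 2.85% were called and 6.53% passed the adjusted p. All pairs were not split by strand or by the next 5′ splice site.

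Several members can leave one 5′ splice site, and they share its upstream reads. There were 41 such 5′ splice sites with 87 members. The S34F mean share was higher for every member at 30 of these sites, lower for every member at 2, and mixed at 9. Members with a downstream acceptor joined to further 5′ splice sites had a median change of 0.71 and the others 0.76.

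Of the 5 members with the largest pooled downstream shares, 1 was called, the chromosome 14 pair. Over all members, calls made up 8.33% of the 180 with a pooled share of 5 to 10% and 26.7% of the 45 with 10 to 20%, while edgeR called 0 of the 337 with up to 1%, of the 233 with 1 to 2% and of the 344 with 2 to 5%. In those bins 84, 55 and 110 members had an unadjusted p under 0.05, and 22, 17 and 39 passed the adjusted p, with differences under 10 percentage points; DESeq2 and limma were not counted by bin. A pooled share of up to 5% leaves little room for a difference of 10 percentage points. The counts of 0 there thus follow largely from the definition of a call and show no absence of change. All pairs were not split by pooled share. On chromosome 11, minus strand, the acceptor at 64674888, 24 nt downstream of 64674912, took 100%, 91.9% and 94.6% in WT and 88.1%, 100% and 87.7% in S34F (edgeR adjusted p = 0.479). On chromosome 19, plus strand, the acceptor at 39114744, 28 nt downstream of 39114716, took 73.1%, 64.3% and 77.1% in WT and 61.7%, 75.5% and 51.3% in S34F (edgeR adjusted p = 0.518). Its difference of -8.69 percentage points turned to 4.60 with multi-mapped reads included and to 0.784 against all other acceptors. Both sites carried most reads of their pair in every library although they are absent from the annotation used. On chromosome 9, minus strand, the acceptor at 132593220, 21 nt downstream of 132593241, took 50%, 26.1% and 65.2% in WT and 73.1%, 53.6% and 64.3% in S34F (edgeR adjusted p = 0.357). On chromosome 5, minus strand, the acceptor at 886820, 63 nt downstream of 886883, took 26.3%, 41.5% and 64.0% in WT and 46.2%, 54.8% and 61.0% in S34F (edgeR adjusted p = 0.474). WT replicates of both pairs ranged over more than the difference of the group means.

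The most deeply covered members used the downstream acceptor rarely. On chromosome 6, minus strand, the acceptor at 74228259, 75 nt downstream of 74228334, had 4, 3 and 2 reads in WT and 4, 0 and 2 in S34F, on 57964 to 110980 pair reads per library (edgeR adjusted p = 0.720). On chromosome 6 (plus strand) the acceptor at 33243768, 27 nt downstream of 33243741, took 0.0638% ± 0.0143 in WT and 0.0747% ± 0.0150 in S34F (n = 3 each; edgeR adjusted p = 0.760), the only one of these 5 pairs with over 10 downstream reads in every library. On chromosome 13, minus strand, the acceptor at 45913682, 56 nt downstream of 45913738, had 2, 3 and 2 reads in WT and 8, 5 and 6 in S34F. Those groups did not overlap, and the pair did not pass (log2 odds 1.19 with an SE of 0.64, edgeR adjusted p = 0.342). On chromosome 4, minus strand, the acceptor at 39458099, 60 nt downstream of 39458159, had 4, 6 and 2 reads in WT and 5, 6 and 0 in S34F (edgeR adjusted p = 0.992).

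For 17 members the same acceptors were also tested from a further 5′ splice site, and 1 of them passed the adjusted p; the 4 with most reads are described. On chromosome 19, plus strand, the acceptor at 49993546 lay 58 nt downstream of 49993488. Joined to the 5′ splice site at 49993180 it had 0, 0 and 1 reads in WT and 2, 2 and 5 in S34F, on 16239 to 27287 pair reads per library (edgeR adjusted p = 0.166). Joined to the 5′ splice site at 49993170, where the upstream junction is unannotated and the pair is therefore no member, it took 10.3%, 10.2% and 22.1% in WT and 24.9%, 34.8% and 28.1% in S34F (log2 odds 1.31 with an SE of 0.28, edgeR adjusted p = 0.00104). That pair was not called with DESeq2 or limma. The share of reads on this acceptor thus lay far apart between 5′ splice sites 10 nt from each other. The next annotated 5′ splice site lay only 8 nt past the acceptor. Neither pair was held in the fit that asked for a largest overhang of at least 20 nt. Whether short overhangs affected these counts was not tested.

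On chromosome 1, plus strand, the acceptor at 202987628, 20 nt downstream of 202987608, took 0.760% ± 0.130 in WT and 1.95% ± 0.418 in S34F from the 5′ splice site at 202985269 (n = 3 each; log2 odds 1.40 with an SE of 0.44, edgeR adjusted p = 0.0414, a rise of less than 10 percentage points). It did not pass with DESeq2, limma or the replicate block, nor without any library other than S34F replicate 1 (adjusted p from 0.0794 to 0.450). From 202987048 it took 4.84%, 0% and 0% in WT and 3.64%, 14.6% and 7.32% in S34F, on 112 and 178 pair reads in all (log2 odds 1.55 with an SE of 0.90, edgeR adjusted p = 0.393). On chromosome 3, plus strand, the acceptor at 23959437, 97 nt downstream of 23959340, had 2, 1 and 0 reads in WT and 10, 3 and 4 in S34F from 23958665 (edgeR adjusted p = 0.0653), and 1, 0 and 2 against 1, 2 and 4 from 23958731 (edgeR adjusted p = 0.693). On chromosome 1, the acceptor at 225976960, 19 nt downstream of 225976941, took 3.09% ± 1.27 in WT and 3.47% ± 0.428 in S34F from 225971071 and 5.88% ± 1.66 and 4.26% ± 1.60 from 225974688 (n = 3 each; edgeR adjusted p = 0.866 and 0.703). The first of these pairs passed from 202985269 alone, with a change no larger than the one from 202987048, and the 5′ splice sites were not tested against each other.

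At the edges of the rule, 99 members had exactly 10 pooled reads on the downstream site, with median shares of 0.760% in WT and 0.914% in S34F, and 134 candidates with 9 stood at 0.609% and 1.09%. There were 6 members with 20 reads in their lowest library (2.71% and 10.2%), and 7 candidates with 19 (5.17% and 7.49%). At a distance of 10 nt there were 25 members (2.04% and 2.63%), and at 9 nt 36 pairs outside the rule (0.776% and 0.687%). At 100 nt there were 7 members (0.639% and 3.49%), and at 101 nt 5 pairs outside it (0.363% and 1.67%).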

How the data were processed

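Each of the 6 libraries came with 1 junction table of 9 columns without a header. The deposited values are raw counts of uniquely mapped and of multi-mapped reads per junction, and the largest overhang in nt, which are whole numbers that the authors had not normalized as far as the values show. Per the submitters' processing notes the tools include STAR and the build is hg19; version, annotation and junction filters are not given in the sources used here.

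Tables were joined by position, and a missing junction counted as 0. The fit used edgeR 4.0.16 (R 4.3.3; quasi-likelihood F-test, robust, legacy dispersion) with library intercepts, a term for the site (upstream or downstream) and its interaction with S34F; SE is the absolute coefficient over the square root of F. It covered all pairs 1 to 100 nt apart, adjusted by Benjamini-Hochberg. Alternatives used DESeq2 1.42.0 and limma 3.58.1 (log2 odds with 0.5 added to each count). Tables were handled in pandas 2.3.3 and intervals computed in scipy 1.17.1. Tested on simulated data for the 5684 pairs of this comparison, where 100 members differed by 2 and 100 by 4 in log2 odds, the fit gave these shares: 15% and 81% were called, 29% and 96% passed the adjusted p. Of the 5484 pairs simulated without a change, 0.0729% passed and 0% were called. The simulation gave every pair the same spread, estimated from pairs with intermediate shares. Most members had low shares, so these rates may not hold for them.

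Named pairs are the 7 largest downstream and up to 7 upstream calls, the 5 largest pooled shares, the 5 with most reads, 4 whose acceptors were tested from a further 5′ splice site, and pairs at the thresholds. Members and lists were chosen with earlier results of these data known. Genes were not assigned, so the gene lists were not used here.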

Additional observations from a re-analysis of the deposited data

How the results depend on the processing

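The change of denominator to all other acceptors and the minimum of 10 reads on each site in each genotype were chosen after seeing the data. The count of 29 called members, 28 downstream and 1 upstream, was 12, all downstream and 0 upstream, with at least 50 reads in each library (859 members tested), 8 and 0 upstream with DESeq2 (211 members at an unadjusted p under 0.05), 5 and 0 upstream with limma (346), and 13, 12 of them downstream, with 10 reads on each site in each genotype (329 tested). Over all pairs these settings called 2.25%, 0.633%, 0.176% and 4.50%, beside 1.40%, 0.688%, 0.430% and 3.95% of the members. Asking for 20 percentage points left 7 calls, 0 of them upstream, and asking for none gave 132, with 130 downstream and 2 upstream (57 and 371 over all pairs). The median change of 0.74 was 0.37 with 10 reads in each genotype and between 0.64 and 0.97 when a library was left out. Fits without replicate 1, 2 or 3 of either group made 24 to 35 calls, 23 to 34 of them downstream and 0 to 1 upstream. These fits called 2.07% to 3.01% of the members and 1.97% to 2.96% of all pairs. Of the 29 calls, 14 were kept in all 6 such fits, and all 29 kept their direction there. The upstream call was also absent, at 0, with the replicate block and against all other acceptors of the 5′ splice site (24 calls, all downstream, 2.07% of the members beside 2.99% of all pairs). Under the replicate block 26 members were called (2.24%, beside 2.39% of all pairs), 25 of them among the 29; samples with the same number did not deviate together (correlations of -0.05, -0.03 and -0.04), so the numbers were not taken as pairs. The count stayed within 1.5 times under the mean of 20 reads (35), multi-mapped reads (31), the overhang minimum (29), the newer edgeR dispersion (31), the fit of pairs 10 to 100 nt apart (32) and TMM factors (29). In the same order these were 2.73%, 2.67%, 2.52%, 2.67%, 2.75% and 2.50% of the members. Of all pairs in each fit, 3.13%, 2.83%, 2.92%, 2.97%, 4.56% and 2.85% were called. Differences that were not called turned sign at 3 named pairs: chromosome 19 at 39114744, to 4.60 percentage points with multi-mapped reads and 0.784 against all other acceptors; chromosome 4 at 39458099, from -0.00492 to 0.00858 when a library was left out; and chromosome 1 at 225976960, from -0.273 to 0.994. For the other changes the cause was not tested. Of the 29 calls, 25 were among the 581 members below the median of pair reads, where 69 passed the adjusted p, against 63 of the 581 above it.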
